A study of Mus musculus with 59 samples.

Results

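The cytosolic ribosomal protein genes of mouse brown adipose tissue (BAT) were taken by symbol from the 3 deposited count tables, as the Rpl and Rps genes together with Rplp0, Rplp1, Rplp2 and Rpsa, without the rows named as pseudogenes. Of 55341 listed genes, 89 had such a symbol, and 88 had a mean raw count of at least 10 over all mice. By symbol, 52 of these genes are named for the large subunit and 36 for the small subunit. Rpl10l, at 0 counts in every mouse, was left out. The member nearest above the limit was Rps10, with a mean of 12.1 counts, and no gene lay between Rpl10l and the limit. In the GENCODE annotation of GRCm38, 82 members are protein coding. The other 6 (Rpl32l, Rpl6l, Rps12l1, Rps3a2, Rps3a3 and Rps4l) are annotated as pseudogenes, in spite of their plain symbols.

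Cytosolic ribosomes translate all nuclear-encoded messages, including those of the mitochondrial proteins that brown fat uses to make heat. Each ribosome holds a single copy of nearly every ribosomal protein, the acidic stalk proteins Rplp1 and Rplp2 being present in several, and the cell makes the set in step. Many of the messages begin with a run of pyrimidines (the TOP motif), through which the mTORC1 kinase controls how strongly they are translated. A few members have a relative, such as Rpl3l of striated muscle or Rpl39l of testis, that can take the place of the usual protein.

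RNA-seq counts came from 59 male C57BL/6J mice aged 8 to 12 weeks. Wild-type (WT) mice received PTU, which blocks thyroid hormone synthesis, alone or followed by thyroid hormone (TH) for 3, 6, 12 or 24 h, with 4 mice in each group, and BATKO mice received PTU alone or with TH for 24 h, with 5 mice in each. In another experiment, CTRL and BATKO mice were kept at 4 C (3 CTRL, 4 BATKO) or 30 C (4 CTRL, 5 BATKO) for 24 h, and in the last one they received a high-fat diet (HFD; 4 CTRL, 3 BATKO) or chow (4 CTRL, 2 BATKO) for 3.5 d. The labels name BATKO as a genotype and give neither the gene nor the driver of the change, so that its cell type could not be stated. All mice of the first experiment, controls included, had received PTU. The deposited tables held 7612059 to 18073627 gene counts in a mouse, and members took only 0.128% to 0.359% of them. Brown adipocyte markers were measured in all groups, with none of the 8 at 0. In whole tissue, less RNA per cell and fewer cells of a type cannot be told apart.

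Start sites of members that had a RefSeq window and passed the test in at least 2 of the comparisons of TH, temperature or diet within a genotype are shown first, because the pyrimidine run is the sequence feature for which these genes are known. The RefSeq promoter windows of GRCm38.p6 held 63 of the 88 members. RefSeq and GENCODE starts can differ. The stretch printed for Rps15 lies wholly before its GENCODE start at 80292453. In GENCODE, Rpl7a (from 26910764) and Rpl22l1 (from 28805436) begin before the bases printed for them. Each line gives 30 bases, 10 before the annotated start and 20 from it, and capitals mark a C followed by at least 4 C or T that begins within 5 bases of the start.
Rpl13a, chr7:45128726-45128755, minus strand: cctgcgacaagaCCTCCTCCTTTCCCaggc
Rpl7a, chr2:26910797-26910826, plus strand: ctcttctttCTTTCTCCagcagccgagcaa
Rps27, chr3:90213629-90213658, minus strand: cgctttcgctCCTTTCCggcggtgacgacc
Rpl22l1, chr3:28805498-28805527, plus strand: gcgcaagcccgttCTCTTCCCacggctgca
Rpl10, chrX:74270806-74270835, plus strand: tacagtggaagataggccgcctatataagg
Rplp0, chr5:115559457-115559486, plus strand: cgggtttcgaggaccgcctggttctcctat
Rpl7l1, chr17:46782637-46782666, minus strand: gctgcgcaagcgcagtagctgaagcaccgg
Rpl39l, chr16:10170218-10170247, plus strand: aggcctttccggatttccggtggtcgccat
Rpl4, chr9:64173377-64173406, plus strand: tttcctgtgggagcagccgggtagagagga
Rpl9, chr5:65391412-65391441, minus strand: gggccctgacggattacaagaacgtgatga
Rps15, chr10:80292421-80292450, plus strand: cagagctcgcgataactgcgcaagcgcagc

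A pyrimidine run was found at 30 of the 63 members (47.6%), against 21.2% of all 27025 genes with a window. The search depends on the annotated start being right within 5 bases. A member without the run here is therefore not shown to lack the TOP motif. The letters CCGGAA, bound by ETS factors, stood on either strand in 35 members (55.6%, against 16.7% of all genes). GGGCGG, bound by SP1, stood in 38 (60.3% against 38.2%). AAGATGGC, bound by YY1, stood in 6 (9.52% against 3.19%), and TATAA in 19 (30.2% against 27.99%). None of these 4 elements holds another, matches of different elements may overlap, and each match is a description of a window of 300 bases around an annotated start. Between 4 C and 30 C the median difference of members in CTRL mice was -0.34 (log2) with the run (28 tested) and -0.37 without it (32 tested). In BATKO mice it was -0.07 with the run and -0.22 without it. At 24 h of TH it was 0.15 with the run (25 tested) and 0.02 without it (32 tested).

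The tables held 300 further rows named as pseudogenes of these families, whose sequences resemble the members. A 50-base window of a member's exons was called its own when no other annotated gene held it on either strand, and the median member had 81.1% own windows. The libraries fell into 3 counting profiles that cut across the treatments. Gm13340, a row outside the members, was at 12.0 to 28.2 counts in 1e6 (CPM) in 16 libraries, at 334 to 731 CPM in 33 libraries and at 8005 to 12321 CPM in 10 libraries. The high profile was that of all 10 BATKO mice of the TH experiment. The low profile was that of all 13 mice of the diet experiment and of 3 mice of the temperature experiment, namely CTRL 4C mouse 1, BATKO 4C mouse 11 and BATKO 30C mouse 14. The remaining 33 libraries had the middle profile.

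**Figure D1:**
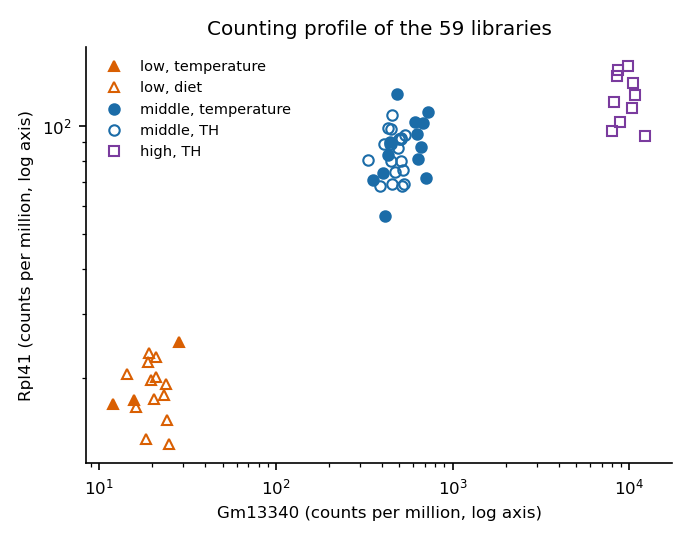
Rpl41 (vertical) against Gm13340 (horizontal), both in CPM on log axes, with each point a library of 1 mouse and the shape giving its profile (filled for the temperature experiment). The 3 low points of the temperature experiment lie near the diet libraries, at 16.9 to 25.1 CPM of Rpl41, against 56.1 to 122 CPM in the other 13.

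Some members differed with the profile. Rpl41, the smallest protein of the large subunit, had 222 normalised reads in CTRL 4C mouse 1, 189.8 in BATKO 4C mouse 11 and 203 in BATKO 30C mouse 14. In the other 13 mice of that experiment it lay between 748 and 1109.6. Rps26, which lies at the exit of the message channel, had 204, 158 and 199.6 in the same 3 mice. Of the 59 members with a mean count above 50 in that table, 8 were lower by over 1 (log2) in all 3 libraries than in the other mice of their group (log2 of CPM + 0.5), 0 were higher by that much in all 3, and 36 stayed within 1 in all 3. The profile was in 1 of 3 CTRL mice at 4 C and in 0 of 4 at 30 C, so the comparisons at 4 C and 30 C were repeated without these 3 libraries and with the profile as a term. What made the profiles differ was not tested.

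In the TH experiment the genotype and the profile cannot be told apart. Pseudogene rows of the families amounted to 95.2% to 97.5% of the members' counts in BATKO mice and to 42.3% to 49.4% in WT mice. Rps12l1, with 0% own windows, had 227, 288, 246, 274 and 241 normalised reads in the BATKO mice under PTU and 0 in each WT mouse under PTU. Between these 2 groups 70 of 88 members were called higher and 7 lower, beside 70.3% of all 14178 genes called (36.4% higher and 33.9% lower). The 70 include 8 members at or under a mean normalised count of 10 over the WT mice. They passed the filter only through the BATKO mice, where they are high, so that no result is drawn from their calls. The median difference was 3.94 (log2) over the 10 members with under 50% own windows and 0.61 over the 19 with at least 90%, with a Spearman coefficient of -0.40 over the 88 members, given as a description. Of these 8 members, Rpl35, Rpl6l and Rps12l1 are among the 10, so that the median and the coefficient rest in part on them. BATKO and WT mice of this experiment are therefore not compared for their levels.

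The share of all gene counts that went to the members was on average lower at 4 C than at 30 C in both genotypes. It was 0.163%, 0.170% and 0.146% in the CTRL mice at 4 C and 0.339%, 0.287%, 0.254% and 0.226% in those at 30 C, so that the groups did not overlap. In BATKO mice it was 0.217%, 0.177%, 0.161% and 0.203% at 4 C and lay between 0.218% and 0.310% at 30 C, so that the highest mouse at 4 C and the lowest at 30 C lay close together. Outside the mitochondrial genes the BATKO groups overlapped, with mouse 7 at 4 C at 0.426% and mouse 14 at 30 C, a low profile library, at 0.424%. The mean was 0.160% ± 0.0125 (SD, n = 3) against 0.276% ± 0.0488 (SD, n = 4) in CTRL mice, and 0.189% ± 0.0254 (SD, n = 4) against 0.266% ± 0.0386 (SD, n = 5) in BATKO mice. Under PTU the WT mice stood at 0.146% ± 0.0185, at 3 h of TH at 0.172% ± 0.0119, at 6 h at 0.180% ± 0.00869 and at 24 h at 0.174% ± 0.00599 (SD, n = 4 each). At 12 h the mice had 0.143%, 0.143%, 0.146% and 0.194%, so that 3 of the 4 lay within the range under PTU (0.128% to 0.170%). Outside the mitochondrial genes the shares under PTU, at 3 h and at 24 h were 0.302% ± 0.0190, 0.336% ± 0.0277 and 0.324% ± 0.0226, and the mice under PTU (0.284% to 0.323%) overlapped with those at 3 h (from 0.314%) and 24 h (from 0.297%). At 6 h the mice lay at 0.326% to 0.345%, all above those under PTU. In the diet experiment all mice lay between 0.166% and 0.205%. A share is set mainly by the most abundant members, of which 5 held 35.7% of the members' counts in the temperature experiment.

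**Figure D2:**
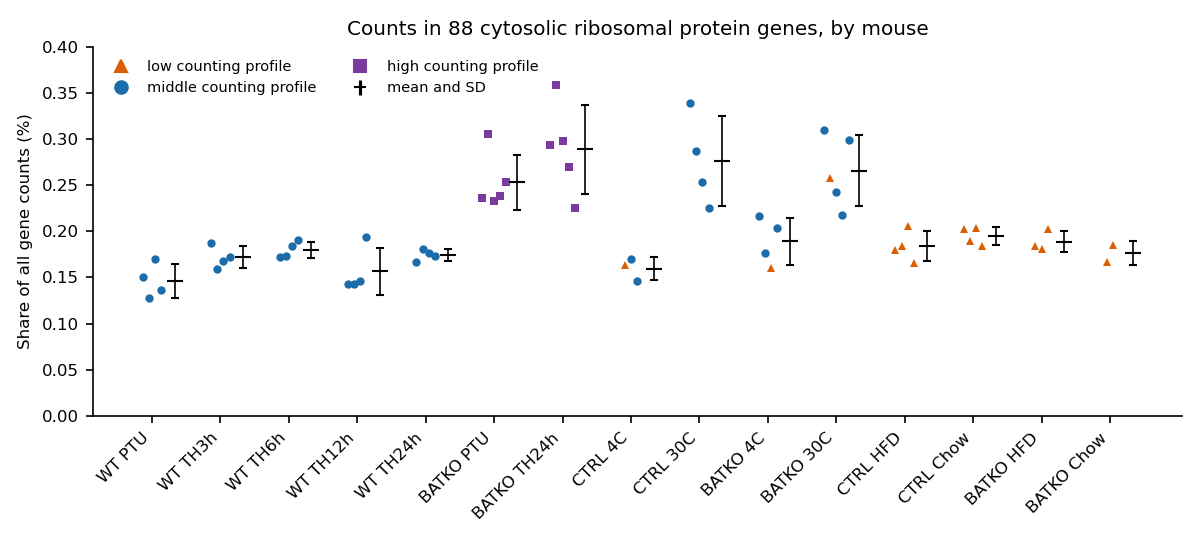
Share of all gene counts in the 88 members (vertical, %), with each point a mouse, the groups along the horizontal axis, shapes giving the counting profile, and bars the mean and SD. CTRL mice at 4 C (0.146% to 0.170%) lie below all CTRL mice at 30 C (0.226% to 0.339%).

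Per kilobase of exon, members differed widely within a group. The length is that of all annotated exons, and reads of mapping quality under 10 had been discarded. These levels, and those of the relatives below, therefore also depend on which reads could be placed, and are not expression alone. Among the more abundant members in WT mice under PTU was Rps27l, the relative of Rps27, with 86.0 ± 10.7 counts per kilobase of exon and 1e6 counts (RPKM; SD, n = 4). Rplp1 of the stalk had 83.5 ± 27.3, Rpl41 had 70.0 ± 10.6 and Rpl26 had 55.4 ± 5.49, and neighbours in this order overlapped between mice. The median member was at 2.80, and the lowest were Rpl35, Rps10, Rpl6l and Rpl11 (0.318, 0.240, 0.217 and 0.157), with Rps12l1 at 0. In BATKO mice under PTU, all of the high profile, these 5 stood at 15.4, 0.870, 29.2, 4.97 and 45.1 RPKM. Genotype and profile cannot be told apart there. Rplp1 stood at 222 RPKM in CTRL mice at 30 C and at 169.8 RPKM on chow.

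Among relatives, Rps27l exceeded Rps27 in WT mice under PTU (86.0 against 0.86 RPKM), and Rps4l, a processed copy, exceeded Rps4x (21.5 against 8.27 RPKM). Rpl7l1, which acts in making the large subunit and not in the finished ribosome, stood at 11.3 RPKM beside 7.87 for Rpl7. It was below Rpl7 in CTRL mice at 30 C (8.48 against 15.5 RPKM) and on chow (12.3 against 15.3 RPKM). Rpl22l1 was below Rpl22 (3.19 against 10.5) and Rpl39l below Rpl39 (2.08 against 4.61), whereas on chow Rpl39l had 1.83 and Rpl39 1.17 RPKM. All chow libraries have the low profile, and in the 3 low profile libraries of the temperature experiment Rpl39 differed by -2.32 to -3.27 (log2) from the other mice of their groups, so that this order cannot be told apart from the profile. Rpl3l, the form of striated muscle, was at 0.70 beside 1.38 for Rpl3, and in CTRL mice at 30 C at 4.66 ± 6.35 (SD, n = 4) beside 2.95 RPKM. Within groups Rpl3l varied most among the 58 members with a mean normalised count above 50 in the temperature experiment. Its SD was 2.44 on the log2 scale, where the median of these members was 0.35. In the 6 mice of that experiment with the most skeletal muscle markers (866 to 9384 CPM) it was at 4.03 to 34.4 CPM, and in the other 10 (0.517 to 738 CPM of the markers) at 0.207 to 3.79 CPM. Whether muscle in the dissected tissue gave these reads was not tested.

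Some of these orders were not those of the high profile libraries. In BATKO mice under PTU, Rps4l was below Rps4x (17.4 against 23.1 RPKM) and Rpl7l1 below Rpl7 (5.62 against 25.4 RPKM). Rps27l exceeded Rps27 there too, at 39.7 beside 6.10 RPKM. Rps4x has 66.5% own windows and Rps27 81.8%, and genotype and profile cannot be told apart here.

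The time course asked how hypothyroid BAT changes over the first day of TH. Few members passed the test in WT mice. At 3 h, 3 of 80 tested members were higher and 0 lower (3.75%), beside 9.19% of all 13003 genes called (5.1% higher and 4.09% lower). At 6 h, 9 were higher and 2 lower (13.8%), beside 23% of all genes (12.1% higher and 10.9% lower). At 12 h, 2 were higher and 1 lower (3.75%), beside 25.7% of all genes (13.6% higher and 12.1% lower). At 24 h, 9 were higher and 3 lower (15.0%), beside 32.7% of all genes (17.2% higher and 15.5% lower). The members' median difference was 0.14, 0.06, 0.04 and 0.09 (log2), where that of all genes was between -0.02 and 0.01. The 4 comparisons share the WT mice under PTU. The other 8 members were at or under a mean normalised count of 10 and were not tested.

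Markers of cell types also moved over the time course, and their part in these results was not tested. The 5 skeletal muscle markers summed to 49.4 to 558 CPM under PTU, 2.83 to 205 CPM at 3 h, 247 to 1535 CPM at 6 h, 2.89 to 247 CPM at 12 h and 225 to 1079 CPM at 24 h. Their median was 303 CPM under PTU, 54.9 and 37.1 CPM at 3 h and 12 h, with 3 members called each time, and 654 and 805 CPM at 6 h and 24 h, with 11 and 12 called. The 8 brown adipocyte markers summed to 13139 to 15541 CPM under PTU and to 19871 to 23168 CPM at 6 h, without overlap, and to 11961 to 24281 CPM at 24 h. The 6 macrophage markers (33.4 to 63.5 CPM under PTU, 43.4 to 88.7 CPM at 24 h) and the 4 fibroblast markers (215 to 364 and 259 to 354 CPM) overlapped. In these groups 0 of these markers were at 0.

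**Figure D3:**
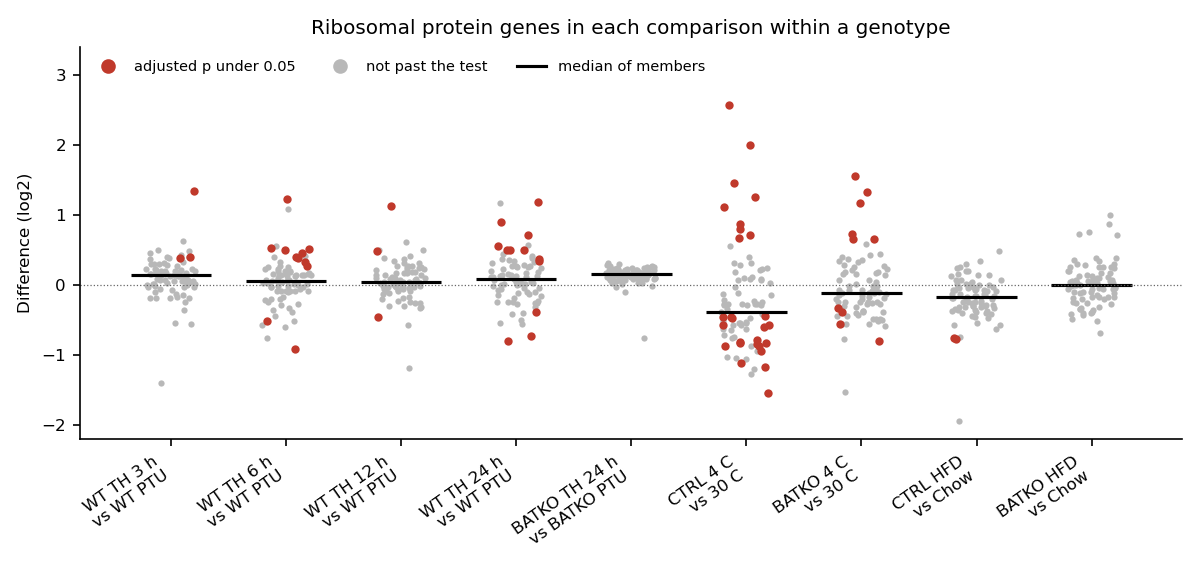
Difference of each tested member (vertical, log2) in the comparisons within a genotype, with each point a member, red where the adjusted p was under 0.05, and a line at the median of the members. The medians lie between 0.04 and 0.14 for TH in WT mice, at -0.38 for CTRL mice and -0.12 for BATKO mice at 4 C, and at -0.17 for HFD in CTRL mice.

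Large subunit members made up most of the calls. Rpl7a, a protein of the large subunit, had 187, 189, 220.5 and 180.2 normalised reads under PTU and 287, 285, 283 and 247 at 24 h, without overlap. The difference was 0.50 ± 0.12 (log2, SE), with an adjusted p of 0.0023 in edgeR's quasi-likelihood test. At 3 h, 6 h and 12 h it was 0.39, 0.38 and 0.49, each past the test. Rpl7a was the only member apart from Rpl23a past the test at all 4 times. Its call at 3 h was lost in 5 of 8 fits with a mouse left out, and 70.2% of its windows are its own.

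Rplp0, the base of the acidic stalk, had 669, 623, 849 and 654 reads under PTU and 984, 867, 982 and 1116 at 6 h. All mice at 6 h lay above all controls, by 0.50 ± 0.12 (adjusted p = 0.0061 by edgeR). At 3 h and 24 h the difference was 0.40 and 0.34 with adjusted p-values of 0.048 and 0.040, and at 12 h it did not pass. The call at 3 h was lost in 7 of 8 fits with a mouse left out, and 68.7% of the windows of Rplp0 are its own. Rpl8 had 665, 617, 837 and 773 reads under PTU and 996, 1181, 1073 and 994 at 24 h, without overlap and with a difference of 0.55 ± 0.13 (adjusted p = 0.0030 by edgeR).

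Rpl13a, a large subunit protein at chr7:45125558-45128761 (minus strand, GRCm38) whose introns hold 4 snoRNA genes, had 37.0, 40.1, 35.4 and 51.2 reads under PTU and 62.1, 61.4, 75.2 and 67.8 at 24 h (0.71 ± 0.18, adjusted p = 0.0049 by edgeR). Rpl10a and Rplp2 rose as well at 24 h, by 0.90 and 0.50. At 6 h, Rpl14, Rpl4 and the pseudogene Rpl32l passed with 0.40, 0.27 and 0.52. The calls of Rpl14 and Rpl32l were lost in 6 and 7 of 8 fits with a mouse left out.

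The largest rise was that of Rpl23a, a protein at the exit of the peptide tunnel, at chr11:78180932-78183584 (minus strand). It had 13.3, 20.6, 20.5 and 23.4 reads under PTU and 54.6, 41.4, 57.9 and 44.2 at 3 h. The difference was 1.35 ± 0.19 at 3 h (adjusted p = 0.00013 by edgeR), and 1.23, 1.13 and 1.19 at the later times. Rpl23a shares 506 exon bases with Tlcd1 on the opposite strand, and 16.3% of its windows are its own. Tlcd1 itself had 696, 750.4, 877 and 895 reads under PTU and 1043, 1279, 1411 and 1089 at 3 h, and rose at each time (0.58, 0.93, 1.30 and 1.09). The strand setting of the counting is not given in the sources used here, so the reads of these genes cannot be told apart.

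Rpl22l1 and Rpl10 went down. Rpl22l1, the relative of Rpl22, had 73.0, 105, 67.7 and 82.3 reads under PTU and 43.1, 48.9, 50.2 and 30.8 at 6 h. All mice at 6 h were below all controls, by -0.92 ± 0.20 (adjusted p = 0.0023 by edgeR). It was lower at 24 h as well (-0.80), and not past the test at 12 h, with 68.3, 75.7, 64.5 and 55.4 reads. Rpl22 itself passed at no time (-0.27 at 24 h, adjusted p = 0.067 by edgeR).

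Rpl10, among the last proteins to join the large subunit, had 148, 156, 176 and 145 reads under PTU and 123, 94.4, 111 and 109 at 6 h. The difference was -0.51 ± 0.13 (adjusted p = 0.0068 by edgeR), and -0.46 and -0.38 at 12 h and 24 h. The call at 24 h was lost in 4 of 8 fits with a mouse left out, and 71.9% of the windows of Rpl10 are its own. Rpl9 passed at 24 h (-0.73 ± 0.22, adjusted p = 0.016 by edgeR) and stood at -0.36, -0.36 and -0.56 at the earlier times, without passing.

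**Figure D4:**
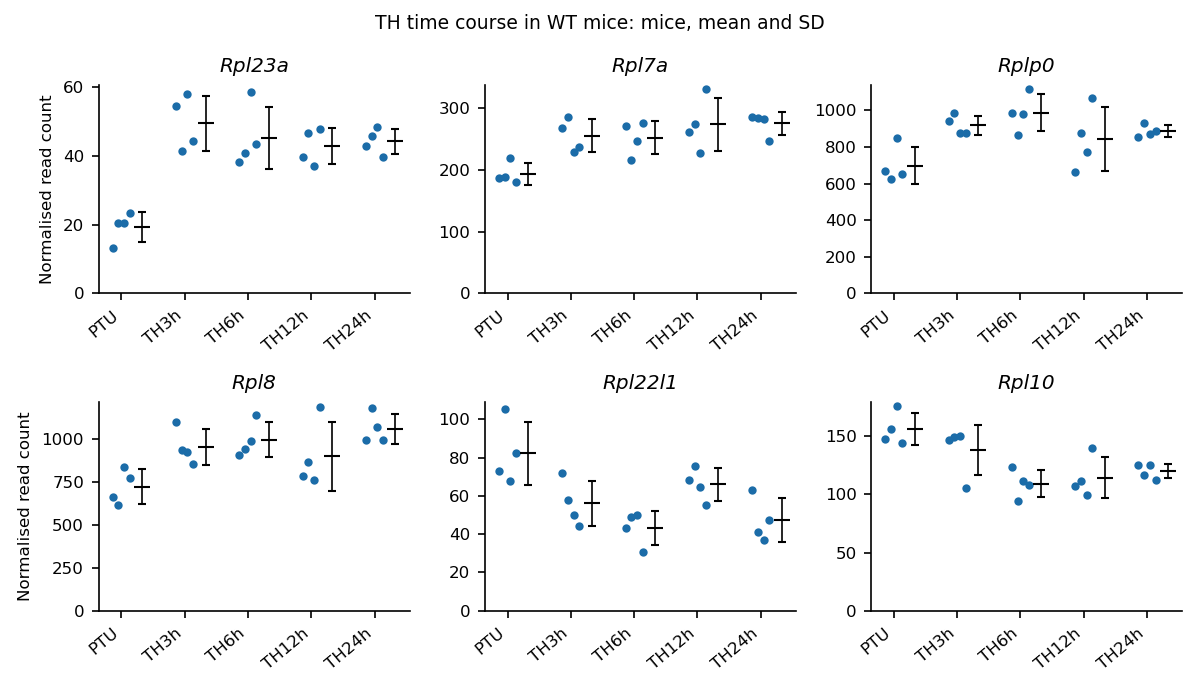
Normalised read counts (vertical, from 0) of 6 members in WT mice under PTU and after 3, 6, 12 and 24 h of TH, with each point a mouse and bars the mean and SD (n = 4). All mice after TH lie above the PTU mice for Rpl23a, whereas for Rpl10 and Rpl22l1 all mice at 6 h lie below them.

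In BATKO mice, 0 of 88 members passed the test after 24 h of TH, beside 0% of all 14178 genes called, by edgeR. At an unadjusted p under 0.05 there were 6 members, and 84 of 88 differences were above 0, with a median of 0.15. The median of all genes was -0.006, and the SD between mice of the median member level was 0.12 in this fit. The members were measured in the same mice, so that these signs are not independent. The difference between genotypes in the response at 24 h was tested directly. It passed for 2 members in each direction, beside 12.3% of all genes (5.12% higher and 7.15% lower). It was -1.03 for Rpl23a, -0.78 for Rpl10a, 0.56 for Rpl10 and 1.11 for Rpl22l1 (BATKO minus WT). Rpl22l1 had 31.7, 54.3, 57.0, 70.8 and 63.6 reads in BATKO mice under PTU and 70.5, 76.2, 58.5, 80.7 and 60.4 with TH. Rpl10a and Rpl23a had at least 238 and 390.2 reads in each BATKO mouse under PTU and at most 27.6 and 24.2 in each WT mouse under PTU, so that these differences compare groups of different counting profiles.

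Of the comparisons within a genotype, cold exposure of CTRL mice had the most members past the test. In CTRL mice at 4 C against 30 C, 9 of 83 tested members were higher and 18 lower. This stands beside 49.1% of all 13267 genes called (26.5% higher and 22.6% lower), where 32.5% of the members were called, 10.8% higher and 21.7% lower. The median difference was -0.38 (log2), where that of all genes was -0.01. It was -0.29 over the large subunit and -0.51 over the small subunit, leaving out the relatives. Of these calls, 6 of the 9 higher and 14 of the 18 lower members passed also without the 3 libraries of the low profile and with the profile as a term. The calls lost in either fit were those of Rpl15, Rpl17, Rpsa, Rpl3, Rpl36, Rpl9 and Rps24.

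Of the 6 relatives (Rpl3l, Rpl7l1, Rpl22l1, Rpl39l, Rps4l and Rps27l), 3 were higher and 0 lower in both genotypes. Of all genes, 26.5% were called higher and 22.6% lower in CTRL mice, and 21.4% and 18.9% in BATKO mice. Rpl7l1 had 683, 776 and 653 reads in the CTRL mice at 4 C and 202, 249.6, 289 and 434 at 30 C, without overlap. The difference was 1.26 ± 0.20 (adjusted p = 7.3e-05 by edgeR). In BATKO mice it had 693, 649.9, 678 and 697 reads at 4 C and between 240.3 and 372 at 30 C, a difference of 1.17 ± 0.17 (adjusted p = 7.8e-05 by edgeR).

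Rps4l is annotated as a transcribed processed pseudogene and overlaps Tmtc1 on the opposite strand, with 0 exon bases shared. As the strand setting of the counting is not given, reads from introns of Tmtc1 cannot be told apart from those of Rps4l. Rps4l had 653, 677 and 495 reads at 4 C and 244, 209, 192 and 239 at 30 C in CTRL mice. The difference was 1.46 ± 0.16 (adjusted p = 2.7e-06 by edgeR), and 0.73 ± 0.14 in BATKO mice (adjusted p = 0.00072 by edgeR). Rps4x, its parent gene on the X chromosome, had 51.5, 151 and 100.4 reads at 4 C and 238, 238, 179 and 251 at 30 C in CTRL mice. It was lower, by -1.17 ± 0.37 (adjusted p = 0.014 by edgeR), and by -0.89 without the low profile libraries.

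Rpl39l, the relative of Rpl39 in the peptide tunnel, had few reads, with 41.7, 37.4 and 56.0 at 4 C and 8.68, 9.57, 9.04 and 18.0 at 30 C in CTRL mice. The difference was 2.00 ± 0.50 (adjusted p = 0.0033 by edgeR) and 1.56 ± 0.46 in BATKO mice, where mouse 8 at 4 C had 56.5 reads and the others at 4 C had 11.2 to 19.5. Its windows are 100% its own. Rpl39 had a difference of -1.27 in CTRL mice, which did not pass (adjusted p = 0.18 by edgeR), and -0.75 without the low profile libraries, which did (adjusted p = 0.010).

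Rpl13a showed the largest rise of all tested members in CTRL mice. It had 287, 152 and 125 reads in CTRL mice at 4 C, the highest being the low profile library, and 30.4, 29.6, 34.3 and 31.7 at 30 C. The difference was 2.57 ± 0.29 (adjusted p = 2.9e-06 by edgeR), and 2.09 without the low profile libraries. In BATKO mice it had 93.1, 82.4, 139.7 and 92.0 reads at 4 C and between 27.5 and 56.5 at 30 C, a difference of 1.33 ± 0.25 (adjusted p = 0.00059 by edgeR). Rpl13a shares 621 exon bases with Gm45713 on the same strand, and 80.4% of its windows are its own.

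Rpl23a was again higher in the cold (1.11 in CTRL and 0.66 in BATKO mice), as was Tlcd1, which shares its exons (1.10 and 0.51). Without the low profile libraries Rpl23a did not pass in BATKO mice (0.72, adjusted p = 0.052 by edgeR). Rpl5, a carrier of 5S RNA, passed in CTRL mice with 0.81 ± 0.21 (adjusted p = 0.0041 by edgeR). It shares 953 exon bases with Fam69a on the opposite strand, and 55.3% of its windows are its own, so that the reads of these genes cannot be told apart either.

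Among the 18 lower members, Rpl10 had 79.7, 88.2 and 105 reads at 4 C and 194, 258, 164 and 174 at 30 C in CTRL mice. The groups did not overlap, and the difference was -1.12 ± 0.26 (adjusted p = 0.0020 by edgeR). In BATKO mice it had 117, 83.6, 141 and 175 reads at 4 C and between 122 and 222 at 30 C, and did not pass.

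Rps27, a zinc finger protein of the small subunit, had the largest fall among those past the test, on few reads, with 11.0, 5.34 and 4.67 at 4 C and 23.4, 22.6, 14.5 and 22.2 at 30 C (-1.54 ± 0.38, adjusted p = 0.0031 by edgeR). In BATKO mice the difference was -0.80 ± 0.31 (adjusted p = 0.048 by edgeR). Rpl35a fell by 0.87, Rpl7 by 0.83 and Rps7 by 0.81 on the log2 scale in CTRL mice. Rps7 had 30.7, 28.05 and 37.3 reads at 4 C and 56.4, 56.5, 53.3 and 59.2 at 30 C, and its groups did not overlap.

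**Figure D5:**
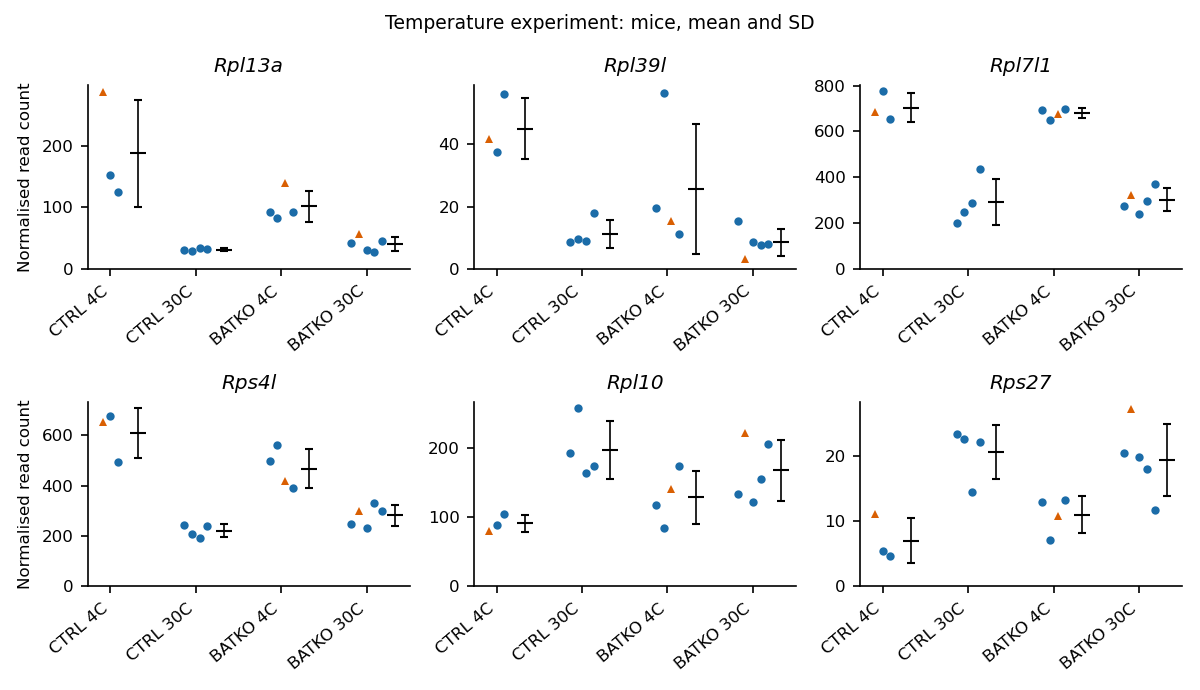
Normalised read counts (vertical, from 0) of 6 members in the temperature experiment, with each point a mouse, orange triangles the 3 libraries of the low profile, and bars the mean and SD. Rpl7l1 and Rps4l at 4 C lie above 30 C in both genotypes, whereas Rpl10 is separated only in CTRL mice.

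In BATKO mice at 4 C against 30 C, 6 of 83 members were higher and 4 lower, beside 40.3% of all genes called (21.4% higher and 18.9% lower). Rplp0, Rps15 and Rps27 were among the lower members (-0.55, -0.33 and -0.80). All 4 passed with the profile as a term, and 0 of the 4 without the low profile libraries, where these 3 stood at -0.50, -0.38 and -0.65 (adjusted p of 0.060, 0.054 and 0.12 by edgeR). Of the 6 higher members Rpl13a, Rpl17, Rpl39l, Rpl7l1 and Rps4l passed in all 3 fits. The median difference was -0.12. Over the 83 members, 43 were lower and 14 higher at 4 C in both genotypes, and the Pearson coefficient between the genotypes was 0.77, where it was 0.84 over all genes, given as descriptions across genes. The counts of 43 and 14 have no share over all genes beside them, so that nothing is drawn from them.

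The difference in cold response between genotypes passed for 0 of 83 members by edgeR, beside 1.12% of all genes called (0.317% higher and 0.807% lower), with 7 members at an unadjusted p under 0.05 and 1 called by DESeq2. The median of this difference was 0.28 (BATKO minus CTRL), and 0.13 with the profile as a term. Between BATKO and CTRL mice at the same temperature 0 members passed by edgeR, at 4 C (5 at an unadjusted p under 0.05, 1 by DESeq2) and at 30 C (4 at an unadjusted p under 0.05), beside 2.16% (0.957% higher and 1.2% lower) and 0.00754% of all genes called.

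Markers of other cell types differed between temperatures in CTRL mice, and their part in these results was not tested. The summed level of 4 fibroblast markers was 197 to 218 CPM in CTRL mice at 4 C and 408 to 588 CPM at 30 C. That of 6 lymphocyte markers was 1.58 to 3.18 CPM and 5.72 to 10.8 CPM, and that of 6 macrophage markers 43.3 to 44.8 CPM and 61.1 to 142 CPM. In these groups 0 markers were at 0. The 8 brown adipocyte markers summed to 17594 to 23118 CPM at 4 C and 6781 to 7768 CPM at 30 C.

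The diet changed few members. In CTRL mice on HFD against chow, 0 of 80 members were higher and 2 lower, beside 3.94% of all 12932 genes called (1.89% higher and 2.04% lower), with a median of -0.17 where all genes had 0.01. Rpl10 had 126, 103, 144 and 112 reads on HFD and 185, 256, 167 and 217 on chow, without overlap (-0.76 ± 0.15, adjusted p = 0.017 by edgeR). Rpl22l1 had 37.4, 40.2, 37.0 and 33.5 reads on HFD and 58.7, 88.01, 55.9 and 49.99 on chow, without overlap (-0.76 ± 0.20, adjusted p = 0.047 by edgeR). Both were also lower at 6 h and 24 h of TH in WT mice.

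Markers of other cell types differed with the diet as well, and their part in these results was not tested. In CTRL mice the 6 macrophage markers summed to 89.8 to 253 CPM on HFD and 65.1 to 78.4 CPM on chow, and the 4 fibroblast markers to 622 to 906 CPM and 402 to 617 CPM, both without overlap. The 6 lymphocyte markers (5.03 to 13.4 and 4.66 to 8.74 CPM), 4 proliferation markers (11.7 to 47.9 and 4.39 to 15.5 CPM) and 8 brown adipocyte markers (9209 to 11723 and 7401 to 9908 CPM) overlapped. In the CTRL groups 0 of these markers were at 0, and in BATKO mice on HFD 1 lymphocyte marker was.

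In BATKO mice 0 members passed on HFD against chow by edgeR (5 at an unadjusted p under 0.05, beside 0.0696% of all genes called, 0.0309% higher and 0.0387% lower). Rpl10 had 238, 184 and 174 reads on HFD and 206 and 191 on chow. The difference in HFD response between genotypes was 0.76 ± 0.25 for Rpl10 and did not pass (adjusted p = 0.73 by edgeR), and 6 of 80 members were at an unadjusted p under 0.05. Between BATKO and CTRL mice, 0 members passed on HFD and 0 on chow by edgeR, with 5 and 3 at an unadjusted p under 0.05, beside 0% of all genes called.

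Genes that act with the ribosome were followed from lists of their own. Their counts stand beside 12.1% of all genes called higher and 10.9% lower at 6 h of TH, 17.2% and 15.5% at 24 h, and 26.5% and 22.6% in CTRL mice at 4 C. Of 33 tested initiation and elongation factors, 9 were higher and 0 lower at 6 h of TH, 9 and 1 at 24 h, and 7 and 8 in CTRL mice at 4 C. Eif4ebp1, the translation repressor that mTORC1 inhibits, was lower at 24 h (-0.73). Eif3f, a subunit of the initiation factor that binds the small subunit, was lower at 4 C in both genotypes (-0.74 and -0.66).

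Of 47 tested ribosome biogenesis genes, 12 were higher and 0 lower at 6 h, with Nop2 at 0.96 and Nolc1 at 0.63. At 4 C, 14 of 48 were higher and 7 lower in CTRL mice, and Nop56, a core snoRNP protein, was lower (-1.35). Of 14 RNA polymerase I genes, which serve ribosomal RNA synthesis, 3 were higher at 6 h (Polr1a at 0.69) and 5 higher and 3 lower at 4 C in CTRL mice (Polr1d at 1.68). Of 16 regulators of mTORC1 and of TOP messages, 6 were higher and 2 lower at 24 h and 7 higher and 1 lower at 4 C. Mtor was higher at 4 C (1.96 in CTRL and 1.32 in BATKO mice), and Deptor, an mTOR inhibitor, at 24 h of TH (1.32). Myc, a driver of ribosome production, was lower at 4 C by -3.53 and -3.40.

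Within the groups of WT mice, the median SD on the log2 scale was 0.20 over 52 members and 0.21 over all genes above a mean count of 50. In the temperature experiment it was 0.35 against 0.25, and 0.25 against 0.24 without the low profile libraries. The pair of members most alike after removing group means was Rpl8 and Rps9 in the 20 WT mice (r = 0.89). In all 16 mice of the temperature experiment it was Rpl41 and Rps26 (r = 0.997), both low in the 3 libraries of the low profile, and without the 3 libraries it was Rpl22 and Rpl23 (r = 0.96). The median over all pairs was 0.21 in the WT mice, where the points share library and depth.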

How the data were processed

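BAT RNA-seq counts of 59 mice in 3 tables were used. Per the labels and the paper's methods, the authors mapped reads to GRCm38 with Bowtie (processing notes of the submitters list Bowtie2 2.3.2.2, DESeq2 and mm10), discarded those of mapping quality under 10, ran htseqcount and deposited the raw counts, not normalized. Bowtie does not split reads over introns. Annotation and strand setting are not given in the sources used here. Mice were grouped by their labels, and all table columns were matched. Of 55341 genes, 55327 were found in GENCODE M21, used for exon lengths and windows.

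Counts were fitted with edgeR 4.0.16 in R 4.3.3 (TMM, mean normalized count above 10, quasi-likelihood test, Benjamini-Hochberg adjustment over all genes tested, threshold 0.05) in fits of 20 WT mice, 30 TH, 16 temperature and 13 diet mice. SEs came from the F statistic. Normalised read counts are counts divided by the TMM library size and scaled to the mean library. The procedure was tested on simulated data. Within groups, 91 pairs of mice were compared, and none agreed within sampling noise (chi-square per degree of freedom at least 6.81).

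Members, lists and tests were chosen with earlier results of these data known. Genes named were the 5 members with the largest change in each direction past the threshold (mean normalized count over 50), the relatives and their counterparts, the 5 highest and lowest per length, the 3 pairs most alike, and the 3 genes with the smallest adjusted p in each direction from the other lists. Members printed with fewer reads were chosen after their values were seen, as were the counting profiles (limits of 100 and 2000 CPM of Gm13340). Alternatives were the count share outside mitochondrial genes or with pseudogene rows, DESeq2 1.42.0, RLE, upper quartile, TMM without mitochondrial and member genes, other filters, fits of the compared groups alone, all 30 TH mice fitted together and each mouse left out. Alternatives added after the data were seen were protein coding members, members with at least 80% own windows and no shared exon, and both fits for the profile. Some members covered by the rule for named genes are not reported here.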

Additional observations from a re-analysis of the deposited data

Results flagged for a closer look

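Over 192 groups of 4 or 5 mice searched for a mouse far from the others of its group, in the share of counts and in 15 of the members given by mouse, 14 were found, where chance alone gives about 9.6 (5%). The gap to the nearest mouse, as a fraction of the whole range of the group, was 0.925 for the share at 12 h of TH in WT mice (mouse B23, 0.194%, the others 0.143% to 0.146%) and 0.715 for the share in BATKO mice under PTU (mouse 3, 0.305%). It was 0.904 for Rpl39l in CTRL mice at 30 C (mouse 22, 18.0 reads, the others 8.68 to 9.57). It was 0.914 for Rpl10 at 3 h (mouse B11, 106 reads, the others 146 to 150.3), and 0.916 for Rpl7a at 24 h (mouse B28, 247 reads, the others 283 to 287). It was 0.861 for Rps27 in CTRL mice at 30 C (mouse 21, 14.5 reads, the others 22.2 to 23.4) and 0.719 for Rplp0 in BATKO mice at 30 C (mouse 17, 2046 reads, the others 1567 to 1702). It was 0.885 for Rps4x on chow in CTRL mice (mouse 2, 213 reads, the others 139.6 to 148) and 0.730 for Rps7 in BATKO mice with TH for 24 h (mouse 8, 261 reads, the others 183 to 204).

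The other 5 were in the low profile libraries of BATKO mice. In mouse 11 at 4 C the gap was 0.850 for Rpl41 (189.8 reads, the others 971 to 1109.6) and 0.896 for Rps26 (158 reads, the others 951 to 1044). In mouse 14 at 30 C it was 0.726 for Rpl41 (203 reads, the others 842 to 1083), 0.762 for Rps26 (199.6 reads, the others 983 to 1227) and 0.718 for Rps7 (54.4 reads, the others 36.8 to 41.8).

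The 24 h response to TH differed between BATKO and WT mice for 4 members by the interaction term. The difference, BATKO minus WT on the log2 scale, was 0.56 for Rpl10, -0.78 for Rpl10a, 1.11 for Rpl22l1 and -1.03 for Rpl23a. All BATKO libraries of that experiment had the high counting profile and all WT libraries the middle one, so that genotype and profile cannot be told apart.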

How the results depend on the processing

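Counting the members past the test in another way moved these counts by over 1.5 times. With DESeq2 the count was 5 at 3 h of TH (3 by edgeR), and 1 for BATKO against CTRL at 4 C and 1 for the difference in cold response (0 by edgeR). Without a filter it was 1 at 3 h, 6 at 6 h, 2 for the difference in TH response, 6 for BATKO mice at 4 C, 4 for HFD in CTRL mice and 1 for BATKO against CTRL on HFD. For HFD in CTRL mice it was 1 above a mean count of 50 and 1 with only the compared groups fitted. With the counting profile as a term, it was 16 for BATKO mice at 4 C and 1 for BATKO against CTRL at 4 C (Rpl13a). Over the members with at least 80% own windows and no shared exon, which are fewer, it was 0, 4, 0 and 4 at 3, 6, 12 and 24 h, 33 for BATKO against WT (median 1.30), 0 for the difference in TH response, 12 and 5 for CTRL and BATKO mice at 4 C, and 0 for HFD in CTRL mice. As this list is smaller, these counts cannot be read as a fall from those over all members. The median for BATKO against WT was 1.20 under upper quartile scaling. Apart from the fewer members and filters, the cause was not tested.

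Leaving out each mouse in turn gave counts of 1 (without WT PTU B2) to 6 (without B4) at 3 h, 4 (without B3) to 10 at 6 h, 3 to 5 at 12 h (5 without B4) and 9 to 18 at 24 h (18 without B24). It gave 2 to 9 for the difference in TH response (9 without B24), 16 (without CTRL 4C mouse 1) to 28 for CTRL mice at 4 C, and 3 (without BATKO 4C mouse 8) to 12 for BATKO mice at 4 C. It gave 0 to 2 for BATKO against CTRL at 4 C and 0 to 3 for the difference in cold response (2 and 3 without CTRL 4C mouse 5), and 0 to 2 for HFD in CTRL mice (0 without CTRL Chow mouse 2). Of 729 values of named genes under other settings 690 kept their call, 39 lost it and 0 reversed, and of 819 with a mouse left out 705 kept it, 114 lost it and 0 reversed. No paired analysis was possible because the mouse numbers that recur between groups belong to different mice, and the groups compared share no number that marks a batch. Members with under about 50 reads limit what could be seen, and groups of 2 to 5 mice limit all comparisons.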
